A study of Mus musculus with 13 samples.

Results

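The SLC25 mitochondrial carriers were measured in white and brown fat of mice in which the PERK kinase could be switched on with a drug. Members were chosen by name alone: every gene on the array whose symbol is Slc25a followed by a number, except Slc25a20, the carnitine-acylcarnitine carrier. This gave 46 genes, read by 55 probes, of 19752 genes that the array named. No measured value entered the choice. SLC25 proteins form the largest family of transporters of the mitochondrial inner membrane, and each passes a small set of metabolites, nucleotides, cofactors or ions between the cytosol and the matrix. They are encoded in the nucleus and are brought into the inner membrane by the TIM22 complex. In brown fat, whose mitochondria burn fuel for heat, they carry the substrates and cofactors that feed oxidation, and the uncoupling protein Ucp1 belongs to the same family. Slc25a17 is an exception in that its product sits in the peroxisome, and the product of Slc25a46 sits in the outer mitochondrial membrane.

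The mice were male C57BL/6J, either wild type or carrying the transgene written mAP::Fv2E-PERK in the labels, which do not spell out mAP. Fv2E-PERK joins the kinase domain of PERK, a kinase of the integrated stress response, to a domain that the bivalent ligand AP20187 pairs up. For white adipose tissue (WAT) there were 3 arrays of untreated wild-type mice, 2 of transgenic mice given vehicle and 3 of transgenic mice given AP20187. Brown adipose tissue (BAT) came from transgenic mice given vehicle (2 arrays, numbered 2 and 3) or AP20187 (2 arrays). AP20187 was injected intraperitoneally at 100 ng/g, vehicle was an ethanol, PEG-400 and Tween-20 solution, and tissue was taken after 12 h. The labels' protocol speaks of muscles at that step, although every array is labelled white or brown fat. No wild-type group received AP20187, so effects of the ligand and of the kinase cannot be told apart. Whether arrays came from separate animals is not stated, so each p-value measures the spread between arrays, which may be technical. One more array, which carries contradictory tissue labels, entered no comparison.

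Each level below is log2 of the processed signal of 1 probe minus the 75th percentile of its array, so 0 lies at that percentile, and levels of different genes are not compared. Spots well above background made up 46.4% to 49.0% on the BAT arrays and 49.0% to 51.5% on the WAT AP20187 arrays. On the wild-type and vehicle WAT arrays they made up 57.9% to 64.0%, so detection differed between these groups. The 75th percentile signal was 102 to 135 on the BAT arrays and 235 to 403 on the WAT arrays. The tissue labels held for the defining marker Ucp1, which lay between -7.23 and -3.41 on the WAT arrays and between 9.87 and 10.63 on the BAT arrays. One array stood apart: on WAT AP20187 1 the epididymis marker list averaged 8.47, against 0.18 on WAT AP20187 2 and -6.77 to -3.94 on the other WAT arrays. Its adipocyte list averaged 5.82, against 6.79 to 7.94 on the other WAT arrays. The skeletal muscle list averaged -3.51 to -1.0 on the WAT arrays, 0.69 and 4.89 on BAT vehicle 2 and 3, and 4.13 and 3.17 on BAT AP20187 1 and 2. The mesothelium list averaged 1.18 to 2.64 in WAT and -5.14 to -4.33 in BAT. All BAT arrays share a slide that holds no WAT array, so tissue and slide cannot be told apart. In whole tissue, fewer cells of a type and less RNA per cell cannot be told apart either.

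Of the 46 carriers, 41 were tested, because all arrays of some group read them well above background. Slc25a2 (an ornithine carrier), Slc25a31 (the ADP/ATP carrier of germ cells), Slc25a53 and Slc25a54 were not well above background on any of the 12 arrays. Slc25a41, of the ATP-Mg/phosphate carriers, was well above background on wild-type WAT 3 only. Slc25a43, a carrier of no settled substrate, entered the test through both WAT vehicle arrays, at -5.11 and -4.39, and was not well above background on any other array. The heat map of 40 tested carriers shows every array.

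**Figure D1:**
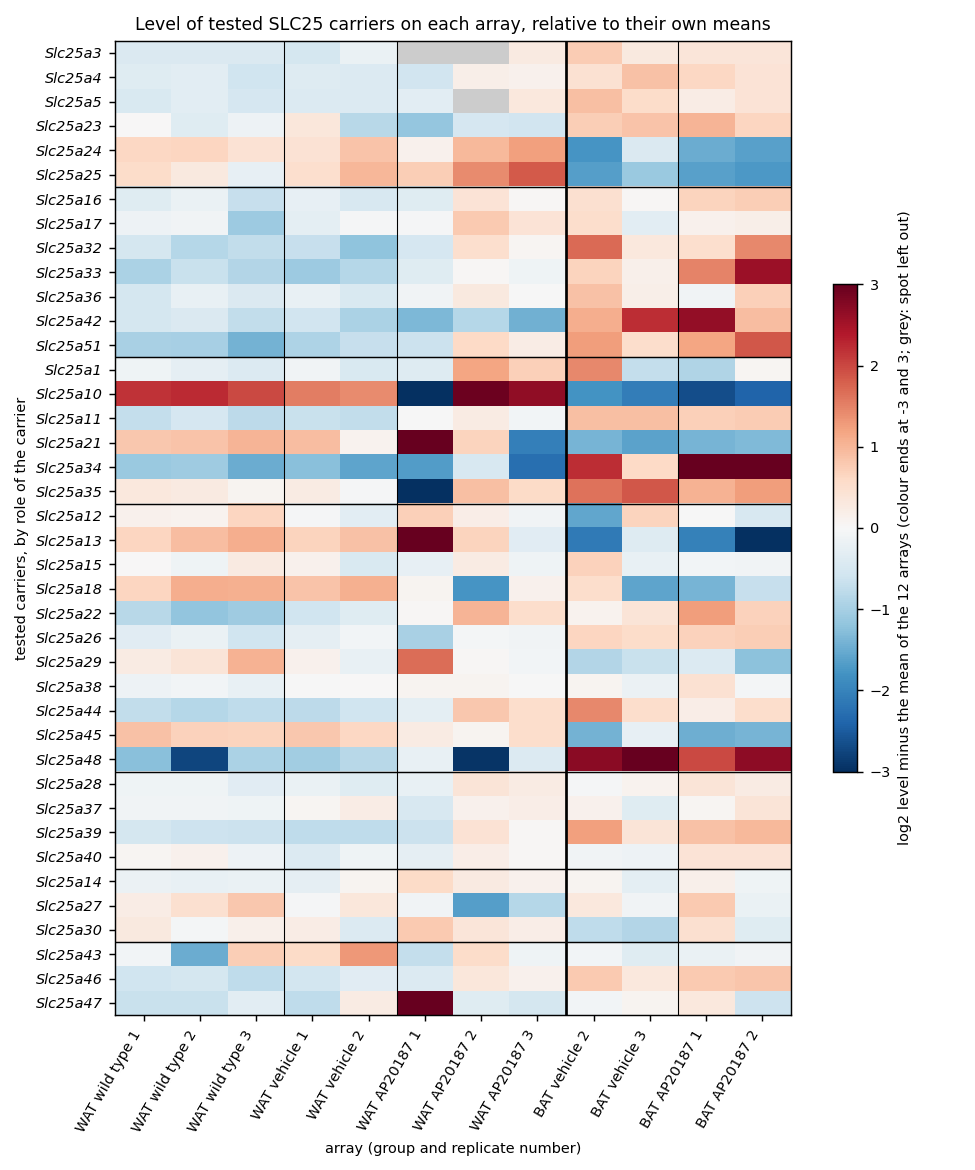
Log2 level of 40 tested carriers on each of the 12 arrays, minus that carrier's mean over the 12 arrays; colours end at -3 and 3, grey marks a spot left out, and carriers are ordered by role. The BAT arrays differ from the WAT arrays in blocks of both colours, and WAT AP20187 1 departs from the other WAT arrays at Slc25a10, Slc25a35, Slc25a13, Slc25a21 and Slc25a47.

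The first question was which carriers separate brown from white fat. A carrier was called tissue-enriched when it passed an adjusted p of 0.05 (limma, Benjamini-Hochberg over all 24456 features) in both tissue comparisons, vehicle with vehicle and AP20187 with AP20187, and when the 4 BAT arrays did not overlap the 8 WAT arrays. Brown fat was higher for 5 carriers, Slc25a11, Slc25a33, Slc25a34, Slc25a42 and Slc25a48, and white fat was higher for 3, Slc25a24, Slc25a25 and Slc25a45. That is 12.2% of the tested carriers for BAT and 7.32% for WAT, beside 7.34% and 6.48% of all features. The plot of these 8 carriers shows their values by group.

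**Figure D2:**
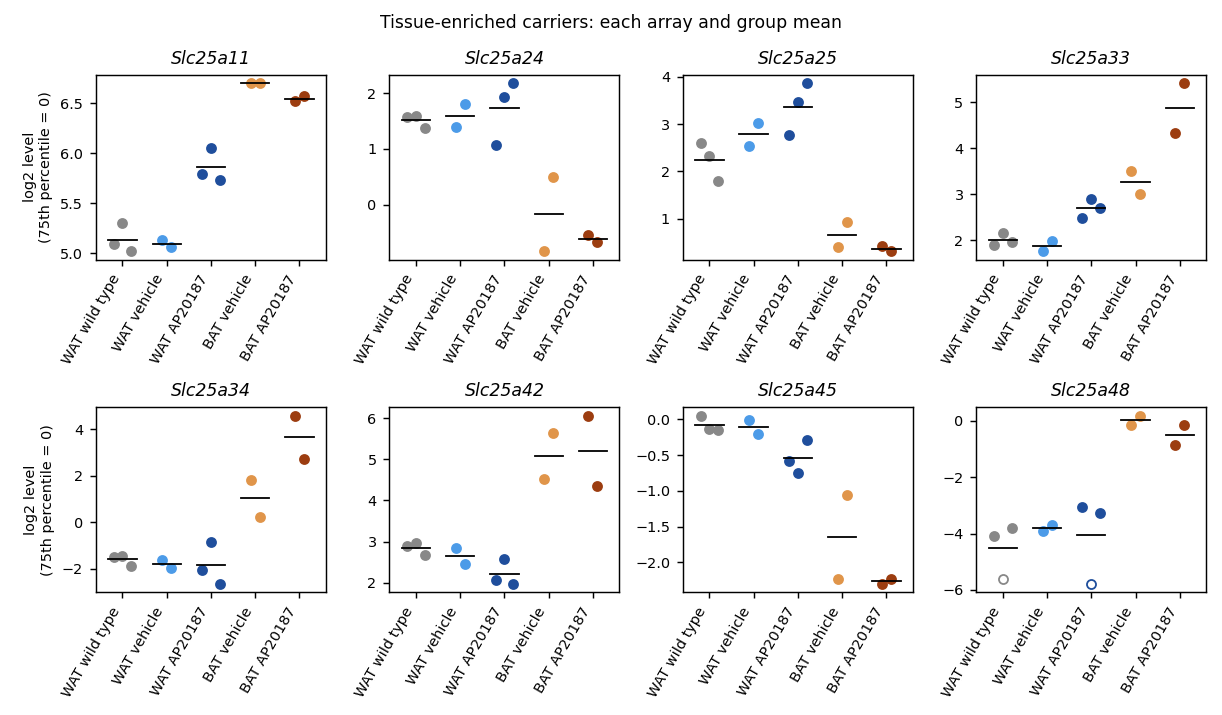
Log2 level above the array's 75th percentile for the 8 tissue-enriched carriers, by group; each point is an array, filled where the spot was well above background and open where not, and the black line is the group mean. In each panel the 4 BAT points lie wholly above or wholly below the 8 WAT points.

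Among the BAT-enriched carriers, Slc25a34 differed most with AP20187 and Slc25a48 with vehicle. Slc25a34 is a mitochondrial carrier without a settled substrate, grouped here with carboxylate carriers by its sequence relatives. Its levels were -1.51, -1.45 and -1.87 on the wild-type WAT arrays, -1.64 and -1.96 on the WAT vehicle arrays, and -2.07, -0.86 and -2.66 on the WAT AP20187 arrays. In BAT they were 1.83 and 0.21 with vehicle and 4.58 and 2.72 with AP20187. Every BAT array lay above every WAT array, and the BAT arrays themselves spread widely. The tissue difference was 2.83 on the log2 scale with vehicle (7.09-fold, SE 0.75, limma Benjamini-Hochberg adjusted p = 0.0269) and 5.51 with AP20187 (45.7-fold, SE 0.69, adjusted p = 7.92e-04). With 1 array left out the log2 difference ranged from 2.02 to 3.63 with vehicle and from 4.59 to 6.44 with AP20187, the ends being fits without 1 of the BAT arrays. The lowest BAT value, on BAT vehicle 3, was on the array with the highest skeletal muscle list (4.89). The highest, on BAT AP20187 1, was on the array with the next highest list (4.13). BAT vehicle 2, at 1.83, had the lowest list in BAT (0.69). The part of muscle RNA in these values was not tested.

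Slc25a48, which is linked to choline transport, was at -4.10, -5.60 and -3.80 on the wild-type WAT arrays, -3.90 and -3.69 on the WAT vehicle arrays, and -3.07, -5.78 and -3.26 on the WAT AP20187 arrays. Of those spots 2, on wild-type 2 and AP20187 2, were not well above background. Its BAT levels were -0.13 and 0.18 with vehicle and -0.86 and -0.17 with AP20187, all of them above every WAT array. The difference was 3.82 with vehicle (14.1-fold, SE 0.89, limma Benjamini-Hochberg adjusted p = 0.0154) and 3.52 with AP20187 (11.5-fold, SE 0.81, adjusted p = 0.0123). Without WAT AP20187 2 the AP20187 difference was 2.65 (6.28-fold), and without BAT AP20187 2 it no longer passed (adjusted p = 0.0791). With vehicle the call was lost in 4 of 12 fits that left out 1 array, each of them 1 of the vehicle arrays (adjusted p up to 0.0764).

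Slc25a42 carries coenzyme A into the matrix in exchange for adenine nucleotides. It measured 2.89, 2.98 and 2.68 on the wild-type WAT arrays, 2.85 and 2.47 on the WAT vehicle arrays, and 2.07, 2.58 and 1.97 on the WAT AP20187 arrays. In BAT it measured 4.52 and 5.64 with vehicle and 6.06 and 4.34 with AP20187. BAT was higher on all 4 arrays, with the order of the BAT arrays unlike that of Slc25a34. The tissue difference was 2.42 with vehicle (5.37-fold, SE 0.54, limma Benjamini-Hochberg adjusted p = 0.0132) and 2.99 with AP20187 (7.96-fold, SE 0.50, adjusted p = 0.00291). The AP20187 fold was 4.39 without BAT AP20187 1 and 14.4 without BAT AP20187 2.

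Slc25a33 moves pyrimidine nucleotides into mitochondria. Its levels were 1.90, 2.17 and 1.96 on the wild-type WAT arrays, 1.76 and 1.98 on the WAT vehicle arrays, and 2.49, 2.89 and 2.70 on the WAT AP20187 arrays. In BAT they were 3.51 and 3.01 with vehicle and 4.33 and 5.41 with AP20187. By this probe, the brightest, the groups lay in steps: both BAT vehicle arrays lay above all WAT arrays, and both BAT AP20187 arrays above those. On its second probe the tissues overlapped, with BAT vehicle 3, at 0.08, under WAT AP20187 2, at 0.40. The tissue difference was 1.38 with vehicle (2.61-fold, SE 0.34, limma Benjamini-Hochberg adjusted p = 0.0196) and 2.18 with AP20187 (4.53-fold, SE 0.31, adjusted p = 0.00147). The second probe gave 1.11 and 2.04. By the brightest probe the vehicle fold was 2.19 without BAT vehicle 2 and 3.11 without BAT vehicle 3.

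Slc25a11, the oxoglutarate carrier of the malate-aspartate shuttle, had the smallest standard error of the 8. It measured 5.09, 5.30 and 5.02 on the wild-type WAT arrays, 5.13 and 5.06 on the WAT vehicle arrays, and 5.79, 6.05 and 5.73 on the WAT AP20187 arrays. In BAT it measured 6.71 and 6.70 with vehicle and 6.52 and 6.57 with AP20187. The WAT AP20187 arrays lay between the other WAT arrays and the BAT arrays without overlap. The tissue difference was therefore larger with vehicle, at 1.61 (3.05-fold, SE 0.18, limma Benjamini-Hochberg adjusted p = 6.5e-04), than with AP20187, at 0.69 (1.61-fold, SE 0.16, adjusted p = 0.0127).

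The WAT-enriched carriers Slc25a25 and Slc25a24 belong to the calcium-regulated ATP-Mg/phosphate carriers, which change the adenine nucleotide content of the matrix. Slc25a25 measured 2.59, 2.33 and 1.79 on the wild-type WAT arrays, 2.54 and 3.04 on the WAT vehicle arrays, and 2.76, 3.46 and 3.87 on the WAT AP20187 arrays. In BAT it measured 0.39 and 0.93 with vehicle and 0.42 and 0.31 with AP20187. No BAT array reached the lowest WAT array. The difference was -2.13 with vehicle (4.37-fold lower in BAT, SE 0.40, limma Benjamini-Hochberg adjusted p = 0.00613) and -3.0 with AP20187 (8.01-fold, SE 0.36, adjusted p = 6.95e-04). Slc25a24 measured 1.57, 1.59 and 1.38 on the wild-type WAT arrays, 1.39 and 1.80 on the WAT vehicle arrays, and 1.07, 1.93 and 2.18 on the WAT AP20187 arrays. In BAT it measured -0.83 and 0.50 with vehicle and -0.54 and -0.67 with AP20187, so that BAT vehicle 3 came closest to WAT. The difference was -1.76 with vehicle (3.38-fold lower in BAT, SE 0.46, limma Benjamini-Hochberg adjusted p = 0.0244) and -2.33 with AP20187 (5.03-fold, SE 0.42, adjusted p = 0.00417). The vehicle fold of Slc25a24 was 2.13 without BAT vehicle 2 (adjusted p = 0.147) and 5.36 without BAT vehicle 3. Slc25a23, of the same carriers, ran the other way. It lay between -1.46 and 0.05 on the WAT arrays and between 0.34 and 0.72 on the BAT arrays, and it was higher in BAT with AP20187 (1.58, 2.99-fold, SE 0.35, adjusted p = 0.0103) while the vehicle comparison gave 1.04 (SE 0.38, adjusted p = 0.082).

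Slc25a45, grouped with amino acid carriers, was the third WAT-enriched carrier. It measured 0.05, -0.14 and -0.15 on the wild-type WAT arrays, -0.02 and -0.20 on the WAT vehicle arrays, and -0.59, -0.75 and -0.29 on the WAT AP20187 arrays. In BAT it measured -2.23 and -1.07 with vehicle and -2.30 and -2.23 with AP20187. BAT vehicle 3 was again the BAT array nearest to WAT. The difference was -1.54 with vehicle (2.91-fold lower in BAT, SE 0.34, limma Benjamini-Hochberg adjusted p = 0.0119) and -1.73 with AP20187 (3.31-fold, SE 0.31, adjusted p = 0.00407). The vehicle fold was 1.94 without BAT vehicle 2 and 4.37 without BAT vehicle 3.

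The set of 8 depended on single arrays, since each tissue comparison rests on 2 to 3 arrays a side. In the fits named next, fewer of all features met the rule as well. Without WAT vehicle 2 the rule named 3 carriers (Slc25a11, Slc25a25 and Slc25a45), and without WAT vehicle 1 it named 4 (Slc25a11, Slc25a23, Slc25a25 and Slc25a42). Without BAT vehicle 2 it named 4 (Slc25a11, Slc25a25, Slc25a42 and Slc25a45). When the tissue difference was averaged over vehicle and AP20187, an alternative chosen after seeing the data, 9 carriers were BAT-enriched and 4 WAT-enriched, or 22% and 9.76%, beside 12.9% and 10.7% of all features. These 13 included the 8 above, Slc25a4, Slc25a23 and Slc25a26 for BAT, and Slc25a13 for WAT, and all 13 were called in each of the 12 fits that left out 1 array.

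Promoter windows are shown for the BAT-enriched carriers with the largest differences with AP20187 and with vehicle, for Slc25a33, which had the smallest p of the carriers between AP20187 and vehicle in BAT, and for the WAT-enriched carrier with the largest difference. Each runs from 250 bases before to 50 bases after a RefSeq transcript start of GRCm38.p6, 5′ to 3′ on the strand of the gene, with a matched motif in capitals. Slc25a34 is at chr4:141623785-141624084, minus strand, and its capitals are the half-site of estrogen-related receptors (ERR, AAGGTCA) read on the other strand. Slc25a33 is at chr4:149774218-149774517, minus strand, and its capitals are an E-box (CACGTG). Slc25a25 is at chr2:32424017-32424316, minus strand, the start whose window holds a full cAMP response element (CRE, TGACGTCA). Slc25a48 is at chr13:56438105-56438404, plus strand, and holds none of the motifs searched.
Slc25a34: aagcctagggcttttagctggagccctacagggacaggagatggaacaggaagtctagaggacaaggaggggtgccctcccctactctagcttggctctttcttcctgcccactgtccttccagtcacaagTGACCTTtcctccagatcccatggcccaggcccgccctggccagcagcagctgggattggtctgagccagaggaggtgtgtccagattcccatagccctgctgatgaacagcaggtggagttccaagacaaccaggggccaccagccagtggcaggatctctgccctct
Slc25a33: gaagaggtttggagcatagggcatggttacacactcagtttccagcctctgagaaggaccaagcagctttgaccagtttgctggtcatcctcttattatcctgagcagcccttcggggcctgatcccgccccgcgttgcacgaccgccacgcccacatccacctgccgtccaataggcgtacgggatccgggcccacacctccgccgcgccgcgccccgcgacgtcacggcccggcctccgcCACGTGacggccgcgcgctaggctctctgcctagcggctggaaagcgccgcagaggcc
Slc25a25: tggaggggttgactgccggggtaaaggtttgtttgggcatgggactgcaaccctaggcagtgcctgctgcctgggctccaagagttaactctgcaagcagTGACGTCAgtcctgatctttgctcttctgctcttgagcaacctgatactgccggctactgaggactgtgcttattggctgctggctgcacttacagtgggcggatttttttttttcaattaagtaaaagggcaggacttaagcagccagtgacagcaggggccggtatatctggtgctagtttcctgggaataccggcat
Slc25a48: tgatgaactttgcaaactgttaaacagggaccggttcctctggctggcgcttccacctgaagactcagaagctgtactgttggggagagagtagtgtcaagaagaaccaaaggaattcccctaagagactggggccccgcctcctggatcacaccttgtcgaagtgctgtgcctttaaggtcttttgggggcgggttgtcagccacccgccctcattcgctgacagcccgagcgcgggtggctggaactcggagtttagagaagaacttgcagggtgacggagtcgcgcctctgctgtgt

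Windows existed for 35 of the 46 carriers, 45 windows in all, and each motif was searched on both strands. The ERR half-site was in 4.72% of all 32851 windows and, among carriers, in Slc25a34 only. The CRE was in 1.79% of windows and in Slc25a25 and Slc25a36, and the E-box in 7.15% of windows and in 7 carriers, of which Slc25a33 alone was tissue-enriched. The NRF1 site was in 4.6% of windows and in Slc25a3 and Slc25a31. The GABPA site (CCGGAAG) was in 8.86% of windows and in 6 carriers, Slc25a25 among them, at another start than the one shown. The ATF4 letters searched (TTGCATCA), a site type of the integrated stress response, were in 0.895% of windows and in no carrier window. These matches describe letters and no binding was measured.

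With vehicle, BAT was higher than WAT for 14 carriers and lower for 3 of the 41 tested. That is 34.1% and 7.32%, beside 14.3% and 9.16% of all features, or 23.4% in either direction. The larger share of higher carriers depended on single arrays. Without WAT vehicle 1, WAT vehicle 2 or BAT vehicle 2, the share of carriers higher in BAT fell under that of all features. Without BAT vehicle 3 it stayed above. Each of these fits leaves a single array in a group. The median difference of the carriers was 0.62 on the log2 scale and that of all features 0.11, and 26 of 41 carriers were positive. With AP20187, 9 carriers were higher in BAT and 4 lower, or 22% and 9.76%, beside 13.1% and 16.9% of all features, or 29.9% in either direction. The median was then 0.25 for the carriers and -0.05 for all features. The plot of tissue differences gives 40 of the tested carriers.

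**Figure D3:**
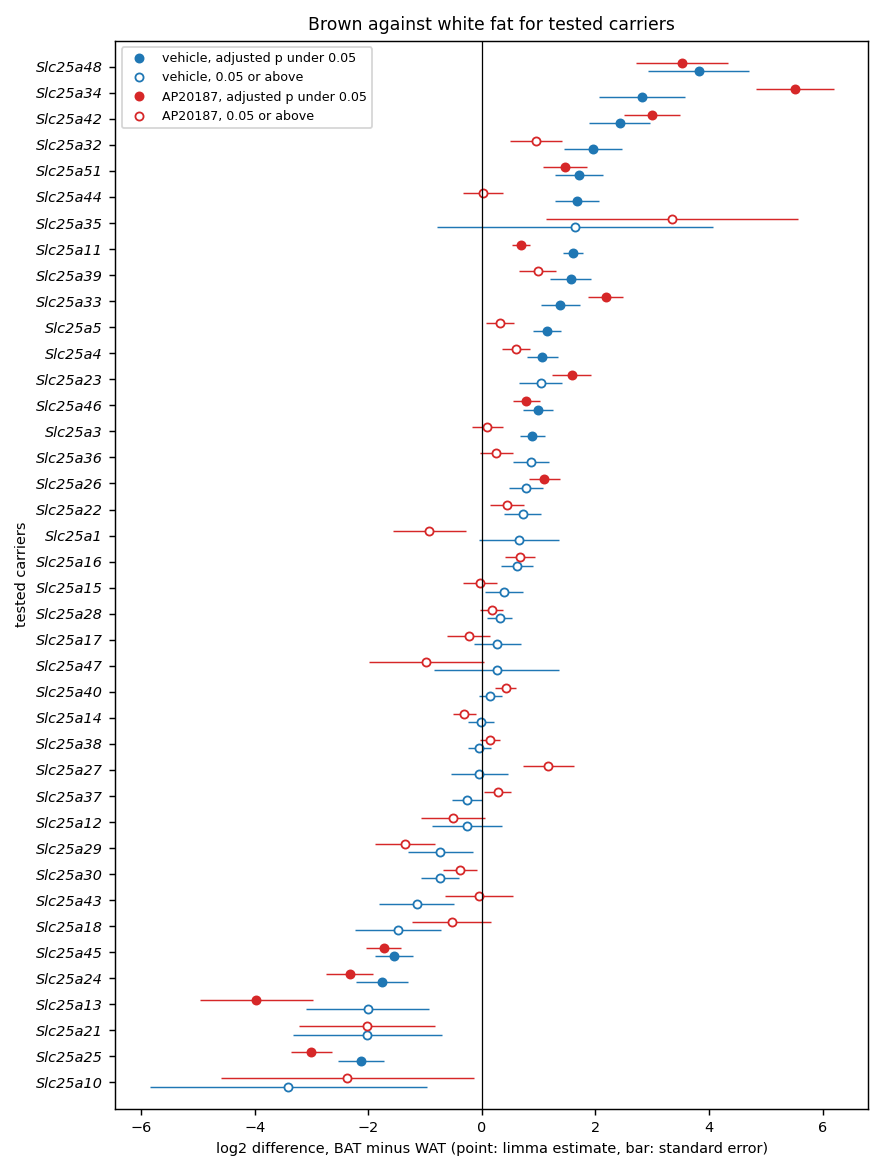
Difference of BAT minus WAT (log2) for 40 tested carriers, with vehicle in blue and with AP20187 in red; bars are the SE of the fit and filled points have an adjusted p under 0.05. The highest point is 5.51 (Slc25a34, AP20187), wide bars mark Slc25a10 and Slc25a35, and points of Slc25a13 (AP20187), Slc25a18, Slc25a21 and Slc25a43 rest on a group with no array well above background and are not exact values.

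By role, carriers of nucleotides other than ATP and of cofactors were the group with the largest median. With vehicle, 5 of 8 were higher in BAT, beside 14.3% of all features, and none passed as lower. All 8 were positive, beside 54.9% of all features, and the median was 1.54, beside 0.11. Slc25a32, which carries folate and FAD, was at 2.81 and 1.41 in BAT and 0.40 and -0.10 in WAT with vehicle, and differed by 1.96 (3.88-fold, SE 0.51, limma Benjamini-Hochberg adjusted p = 0.0242). Slc25a51, a carrier of NAD, was higher by 1.71 with vehicle (3.26-fold, SE 0.43, adjusted p = 0.0209) and by 1.47 with AP20187 (2.76-fold, SE 0.39, adjusted p = 0.0222). It was not called tissue-enriched because, by its brightest probe, its lowest BAT array, at 4.21, fell under the highest WAT array, at 4.27. Its second probe did not overlap, with the lowest BAT array at 4.10 and the highest WAT array at 3.80. Slc25a16, linked to coenzyme A, Slc25a36, a pyrimidine nucleotide carrier, and the peroxisomal Slc25a17 did not pass in either tissue comparison.

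The ADP/ATP and phosphate carriers deliver the substrates of ATP synthase. With vehicle, Slc25a4 (1.06, 2.08-fold, SE 0.27, limma Benjamini-Hochberg adjusted p = 0.024), Slc25a5 (1.15, 2.22-fold, SE 0.24, adjusted p = 0.0132) and Slc25a3 (0.88, 1.85-fold, SE 0.22, adjusted p = 0.0289) were all higher in BAT. Slc25a4 is the isoform of heart and muscle, and it was at 7.83 on BAT vehicle 2, where the muscle list was 0.69, and at 8.25 on BAT vehicle 3, where that list was 4.89. Both lay above the highest WAT value of 7.54, and the part of muscle RNA in the difference was not tested. With AP20187 none of these 3 passed, where spots marked as outliers left Slc25a3 with 1 measured WAT array and Slc25a5 with 2. The second Slc25a3 probe, measured on all 12 arrays, gave a smaller vehicle difference of 0.41. With AP20187 it gave -0.19, where the first probe gave 0.09. Its lowest BAT array, at 2.66, fell under its highest WAT array, at 3.49.

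Among the carboxylate carriers, 2 of 6 were higher in BAT with vehicle, Slc25a11 and Slc25a34, beside 14.3% of all features. Slc25a1, the citrate carrier that exports carbon for fatty acid synthesis, measured 7.82 and 5.66 in BAT with vehicle and 6.27 and 5.92 in WAT with vehicle, with overlapping ranges. Slc25a10, the dicarboxylate carrier, measured -0.77, -1.04, -1.63 and -1.37 on the BAT arrays. On 7 WAT arrays it lay between 2.44 and 3.97, and on WAT AP20187 1 it was at -5.02, not well above background. With that array its tissue difference did not pass (-3.41 with vehicle, SE 2.44, limma Benjamini-Hochberg adjusted p = 0.354). Without it, the difference was -3.41 with vehicle (10.7-fold lower in BAT, SE 0.19, adjusted p = 4.26e-05) and -5.32 with AP20187 (adjusted p = 6.91e-06). Slc25a35, a relative of Slc25a34, was at -5.99 on WAT AP20187 1, not well above background, and at 2.07 to 3.02 on the other WAT arrays. Its BAT levels were 3.73 and 3.96 with vehicle and 3.14 and 3.36 with AP20187. Without that array the vehicle difference of Slc25a35 was 1.64 (3.12-fold, adjusted p = 7.10e-04) and the AP20187 difference 0.40 (adjusted p = 0.145).

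**Figure D4:**
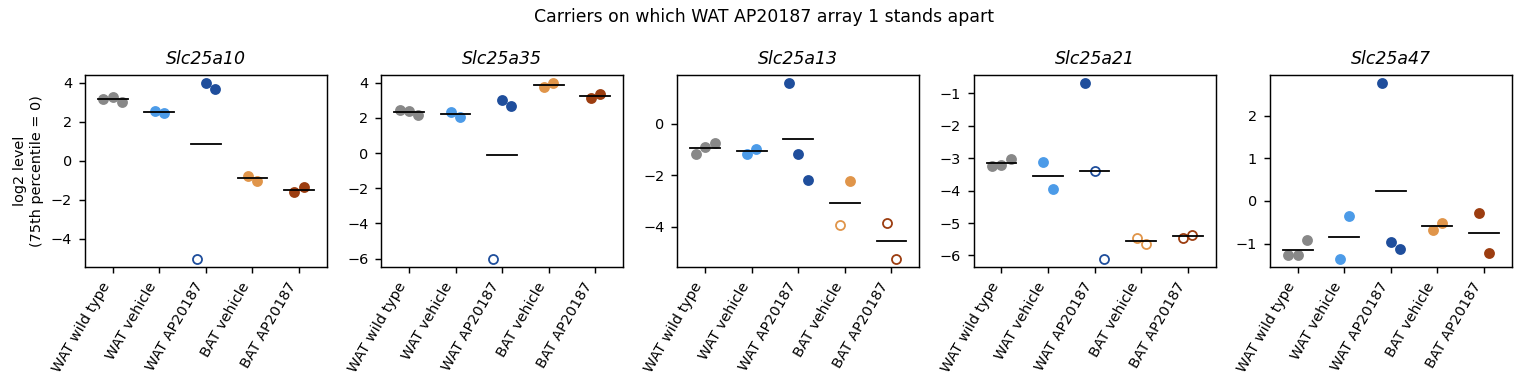
Log2 level above the array's 75th percentile of Slc25a10, Slc25a35, Slc25a13, Slc25a21 and Slc25a47 on each of the 12 arrays; filled points were well above background and open points were not. WAT AP20187 1 lies far under the other WAT arrays for Slc25a10 and Slc25a35, at -5.02 and -5.99, and above them for the other 3 carriers.

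The same array lay more than 1 unit above every other WAT array for 3 carriers. Slc25a13, the aspartate-glutamate carrier citrin, was at 1.58 there and at -2.19 to -0.75 on the other WAT arrays. Slc25a21, the oxoadipate carrier, was at -0.69 there and at -6.09 to -3.02 elsewhere in WAT, and Slc25a47, a carrier known from liver, was at 2.76 there and at -1.35 to -0.35 elsewhere. The -0.35 was on WAT vehicle 2, whose liver list averaged 4.21, against -0.98 to 1.77 on the other WAT arrays. In all, 5 of 41 carriers lay more than 1 unit outside the range of the other WAT arrays, while 4.78% of all features lay above and 4.76% below it. Probes well above background on the other 11 arrays, with a mean level above 1 there, numbered 10142. Of these, 142 were not well above background on WAT AP20187 1. Counted the same way, WAT AP20187 2 gave 129 of 10016 and WAT AP20187 3 gave 32 of 9646. The part of epididymal RNA and of dim spots in these values was not tested.

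Slc25a13 was well above background on all 8 WAT arrays but, in BAT, on BAT vehicle 3 only, at -2.22. With AP20187 it was at least 7.49-fold lower in BAT (limma Benjamini-Hochberg adjusted p = 0.0171). Here "at least" means that each dim array was set at its dimmest probe well above background, or at the carrier's own signal where that was higher. The adjusted p beside each bound is that of the limma fit to the levels as measured, dim arrays included, and the bound itself was not tested. Without WAT AP20187 1, Slc25a13 was at least 3.53-fold lower in BAT with AP20187 (adjusted p = 0.0108). With vehicle, where 1 of 2 BAT arrays measured it, it then passed as lower in BAT (adjusted p = 0.043). Slc25a18, a glutamate carrier, was well above background on all 5 arrays of wild-type and vehicle WAT, at -3.68 to -3.25, and on none of the other 7 arrays. The bounds were at least 1.14-fold between WAT and BAT with vehicle (adjusted p = 0.196) and at least 1.59-fold between vehicle and AP20187 in WAT (adjusted p = 0.250), and neither passed. Slc25a21 was not well above background on any BAT array, with a bound of at least 1.02-fold against WAT with vehicle (adjusted p = 0.307).

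Of the other amino acid carriers, Slc25a44, which brings branched-chain amino acids into mitochondria, was higher in BAT with vehicle by 1.68 (3.20-fold, SE 0.39, limma Benjamini-Hochberg adjusted p = 0.0154). Its levels were 2.47 and 1.55 in BAT and 0.24 and 0.44 in WAT with vehicle, against 1.23 and 1.55 in BAT and 0.73, 1.84 and 1.56 in WAT with AP20187. The tissues thus separated with vehicle and overlapped with AP20187. Its probes differed: the second one gave a vehicle difference of 0.28 and an AP20187 difference of -0.90, where the first gave 0.02. Slc25a26, the S-adenosylmethionine carrier, was higher in BAT with AP20187 (1.09, 2.13-fold, SE 0.27, adjusted p = 0.0173) and missed the threshold with vehicle (0.78, SE 0.30, adjusted p = 0.0943). Slc25a12 (the aspartate-glutamate carrier aralar), Slc25a15 (ornithine), Slc25a22 (glutamate), Slc25a29 (basic amino acids) and Slc25a38 (glycine) did not pass in either tissue comparison.

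Of the iron and glutathione carriers, Slc25a39, which imports glutathione, was higher in BAT with vehicle (1.56, 2.95-fold, SE 0.36, limma Benjamini-Hochberg adjusted p = 0.0148). Slc25a40, its close relative, and the mitoferrins Slc25a37 and Slc25a28 did not pass in either tissue comparison. The uncoupling-protein-like Slc25a14, Slc25a27 and Slc25a30 did not pass either, with a median vehicle difference of -0.05. Slc25a46 of the outer membrane was higher in BAT by 0.99 with vehicle (1.98-fold, SE 0.27, adjusted p = 0.0275) and by 0.78 with AP20187 (1.72-fold, SE 0.24, adjusted p = 0.0387), with its lowest BAT array at 4.64 and its highest WAT array at 4.67. Its second probe did not overlap, with the lowest BAT array at -1.48 and the highest WAT array at -1.73. When the probes of each gene were averaged, Slc25a46 and Slc25a51 were called tissue-enriched and Slc25a33 was not. Of the family genes with other symbols or left out by name, Ucp1 (by at least 15.37 on the log2 scale, since it was not well above background in WAT with vehicle), Slc25a20 (2.90), Mtch2 (1.59) and Mtch1 (0.71) were higher in BAT with vehicle, and Ucp2 (-2.18) and Ucp3 (-1.39) were lower in BAT with AP20187.

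Genes that work with the carriers were read from lists. Of 19 genes of carrier import and the outer membrane, 11 were higher in BAT with vehicle and none passed as lower. Among all features 14.3% were higher and 9.16% lower. The median was 1.0 for the list and 0.11 for all features. With AP20187 only Vdac1, an outer membrane pore, was higher (0.73, limma Benjamini-Hochberg adjusted p = 0.025), Timm22, the channel of the TIM22 complex, was lower, and the median was 0.26. Among all features 13.1% were then higher and 16.9% lower, with a median of -0.05. Of 10 tested shuttle enzymes and related inner membrane genes, 7 were higher in BAT with vehicle and 5 with AP20187, with medians of 1.70 and 0.88. Gpd2, the mitochondrial enzyme of the glycerol phosphate shuttle, was higher by 3.73 with vehicle (adjusted p = 0.00111) and 2.89 with AP20187. Mdh2 and Got1, enzymes of the malate-aspartate shuttle, in which Slc25a11 exchanges malate for oxoglutarate, were higher by 2.0 and 1.92 with vehicle and by 1.67 and 2.06 with AP20187.

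The next question was what AP20187 changed in white fat. Slc25a11 was the only carrier past the threshold against vehicle, and it rose 1.70-fold (0.76 on the log2 scale, SE 0.16, limma Benjamini-Hochberg adjusted p = 0.0494). This is 1 of 41 carriers, or 2.44%, where 1.75% of all features rose, 0.491% fell and 2.24% passed in either direction. Against wild type, Slc25a11 rose 1.65-fold (0.72, SE 0.14, adjusted p = 0.0285) and Slc25a22, a glutamate carrier, rose 2.95-fold (1.56, SE 0.27, adjusted p = 0.0265), beside 7.20% of features higher, 1.66% lower and 8.87% in either direction. Arrays did not overlap for 13 higher and 5 lower carriers in that comparison, where 27.2% and 10.9% of features did so. The levels of Slc25a22 were 1.39, 1.03 and 1.17 in wild type, 1.64 and 1.87 with vehicle, and 2.27, 3.25 and 2.75 with AP20187. Its 3 groups did not overlap, and the change against vehicle was 1.0 (SE 0.30, adjusted p = 0.105). Slc25a44 by its brightest probe measured 0.30, 0.18 and 0.28 in wild type, below all AP20187 arrays. That probe differed by 1.04 from vehicle (SE 0.36, limma Benjamini-Hochberg adjusted p = 0.143) and by 1.12 from wild type (SE 0.32, adjusted p = 0.059). Its second probe differed by 0.47 and 0.59. On that probe WAT AP20187 1, at -0.51, lay within the wild-type range of -0.59 to -0.47. These comparisons share the AP20187 arrays, and the 2 control groups were not alike in slide.

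The call of Slc25a11 against vehicle lay close to the threshold and was lost when the slide was held fixed (0.80, adjusted p = 0.267). On the slide that holds all 3 WAT AP20187 arrays with WAT vehicle 2, Slc25a11 was higher by 0.80, Slc25a22 by 0.89 and Slc25a44 by 0.94. Wild-type WAT and WAT AP20187 share no slide and are linked only through the WAT vehicle arrays. With slide held fixed, Slc25a11 was higher than wild type by 0.79 (adjusted p = 0.928) and Slc25a22 by 1.33 (adjusted p = 0.935), so both calls were lost. With 1 array left out, the call of Slc25a11 against vehicle was kept in 1 of 12 fits, that without WAT AP20187 1, and lost in 11 (adjusted p up to 0.275). Against wild type, Slc25a11 and Slc25a22 each lost the call in 4 of 12 fits, those without wild-type 1, 2 or 3 or WAT AP20187 2 (adjusted p up to 0.119 and 0.110). Without WAT AP20187 1, 4 carriers passed against vehicle: Slc25a10 (1.32, limma Benjamini-Hochberg adjusted p = 0.0302), Slc25a11 (0.80, adjusted p = 0.0362), Slc25a22 (1.25, adjusted p = 0.0370) and Slc25a44 (1.36, adjusted p = 0.0375). That is 9.76% of carriers, all higher, beside 7.65% of all features higher in the same fit. Against wild type 12 then passed, 11 higher (26.8%) and 1 lower (2.44%, Slc25a27), beside 18.5% and 3.4% of all features. The 11 were Slc25a4, Slc25a5, Slc25a10, Slc25a11, Slc25a22, Slc25a25, Slc25a28, Slc25a39, Slc25a44, Slc25a46 and Slc25a51.

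**Figure D5:**
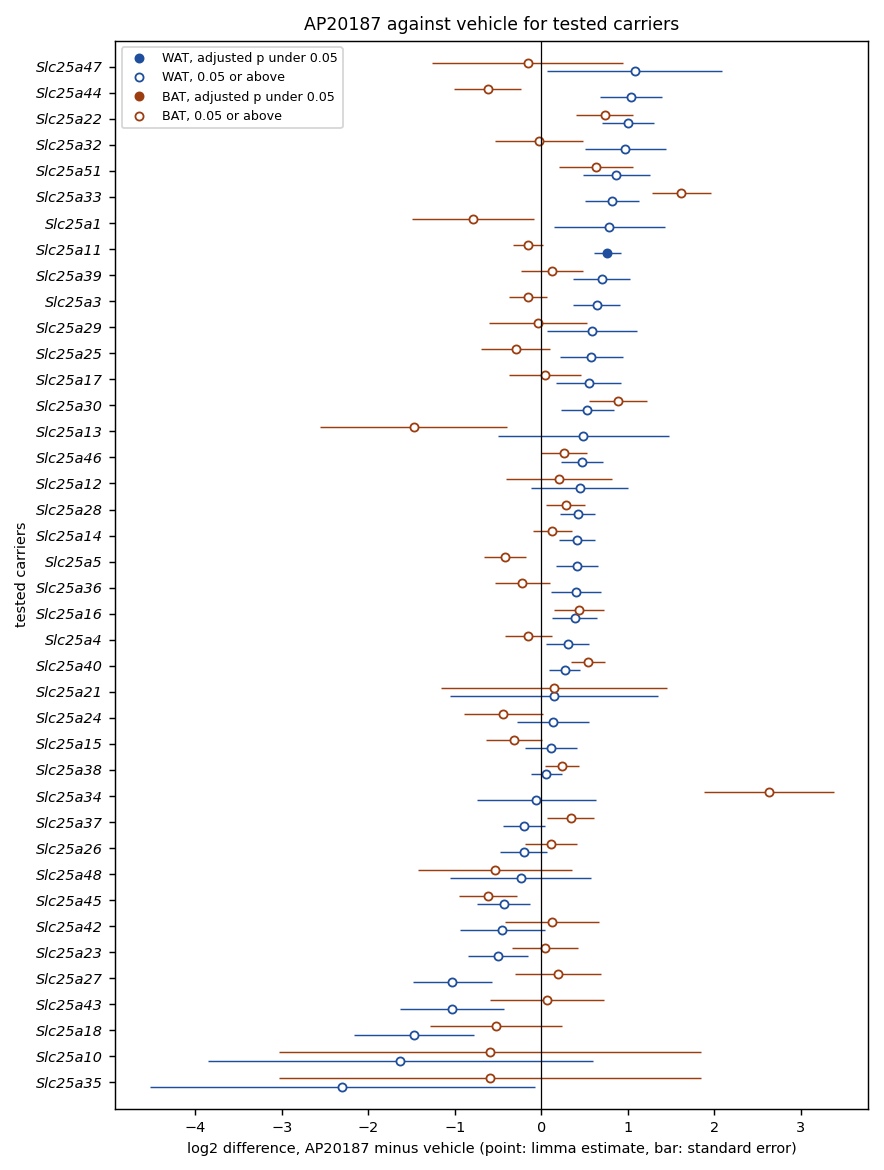
Difference of AP20187 minus vehicle (log2) for 40 tested carriers in WAT and in BAT; bars are the SE of the fit and filled points have an adjusted p under 0.05. Slc25a11 in WAT, at 0.76, is the only filled point, and Slc25a34 in BAT, at 2.63, is the highest point; points of Slc25a13 and Slc25a21 in BAT and of Slc25a18 and Slc25a43 rest on a group with no array well above background and are not exact values.

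Over the 41 carriers, 29 were higher with AP20187 than with vehicle in WAT (70.7%, beside 58.8% of all features), and the median was 0.41 beside 0.15 for all features. Arrays did not overlap for 11 carriers that were higher and 4 that were lower, where 26.3% and 12.3% of all features did so. The percentile over probes detected on every array moved the median of all features from 0.15 to -0.16, and 10 carriers changed sign under at least 1 scaling, none of them Slc25a11, Slc25a22 or Slc25a44. Medians by role were 0.52 for nucleotides and cofactors, 0.36 for adenine nucleotides and phosphate and 0.04 for carboxylates. Of the import list, Vdac2 passed (0.89, SE 0.16, limma Benjamini-Hochberg adjusted p = 0.0459), 17 of 19 genes were positive and the median was 0.62. Against wild type 9 of the 19 import genes were higher, Vdac2, Timm9, Timm10, Timm10b, Timm22, Timm29, Tomm5, Tomm20 and Tomm40, beside 7.20% of all features. Of 10 shuttle genes, 10 were positive and none passed. Against wild type Gpd1, the cytosolic enzyme of the glycerol phosphate shuttle, did (1.07, limma Benjamini-Hochberg adjusted p = 0.0353). In that comparison no feature passed with slide as a fixed block, with the compared arrays alone, or without wild-type 1, 2 or 3. The 9 import genes and Gpd1 thus lost their calls there.

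In brown fat no carrier passed the threshold with AP20187, and 0.00818% of all features did, 2 in number and both higher. At an unadjusted p under 0.05 there were 4 carriers and 1803 features. The smallest p among carriers was that of Slc25a33, at 1.62 (SE 0.34, limma Benjamini-Hochberg adjusted p = 0.306), followed by Slc25a34 at 2.63 (SE 0.75, adjusted p = 0.434) and Slc25a40 at 0.54 (SE 0.20, adjusted p = 0.587). For Slc25a33 and Slc25a34, both AP20187 arrays lay above both vehicle arrays. Slc25a40 measured -0.71 and -0.74 with vehicle and -0.19 on both AP20187 arrays, likewise without overlap. In all, 9 carriers were higher without overlap and 6 lower, where 15.8% and 21.6% of features were. The medians were 0.04 for carriers and -0.04 for all features.

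The AP20187 responses of the tissues were then compared directly. No carrier and 0% of all features passed, with 4 carriers and 4033 features at an unadjusted p under 0.05 (limma). The smallest p belonged to Slc25a11, whose response was larger in WAT by 0.92 (SE 0.24, limma Benjamini-Hochberg adjusted p = 0.142), then Slc25a44 (1.66, SE 0.53, adjusted p = 0.177) and Slc25a34 (-2.69, SE 1.02, adjusted p = 0.242). For Slc25a5, Slc25a11 and Slc25a44, the measured AP20187 arrays lay above their vehicles in WAT and below them in BAT. On the second Slc25a44 probe this did not hold in WAT, where WAT AP20187 1, at -0.51, lay between the vehicle arrays, at -0.83 and 0.04. Each tissue alone had many such features: 26.3% of all features were higher without overlap in WAT and 21.6% lower in BAT. The share of features with both was not counted. For Slc25a5 the spot on WAT AP20187 2 was left out as an outlier, and the difference between tissues was 0.83 (SE 0.35, adjusted p = 0.289). Without WAT AP20187 1, the array on which it was at -5.02, Slc25a10 passed, with a response larger in WAT by 1.91 (SE 0.27, limma Benjamini-Hochberg adjusted p = 0.0346). That is 2.44% of carriers, beside 1.56% of all features in the same fit.

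Between vehicle-treated transgenic and untreated wild-type WAT no carrier passed, beside 0.0245% of features, and 0 carriers had an unadjusted p under 0.05 against 1228 features (limma). The smallest p were those of Slc25a22 (0.56, SE 0.30), Slc25a40 (-0.29, SE 0.18) and Slc25a43, each with a Benjamini-Hochberg adjusted p of 1.0. Slc25a43 was not well above background on any wild-type array, and the bound was at least 1.08-fold. Medians were 0.01 for carriers and 0.02 for all features, and 5 carriers were higher and 4 lower without overlap, where 19.5% and 15.3% of features were.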

How the data were processed

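Cy3-labelled RNA of white and brown fat was read on 1-colour Agilent arrays. The authors deposited intensity as processed signal, from which Agilent Feature Extraction 10.7.1.1 (version per the submitters' processing notes) had, per the file headers, taken off the background and spatial trends of each array. Arrays were not scaled to each other. The authors' deposited value table, also intensity, served as an alternative.

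Control spots and outlier spots were left out, leaving 1313 probe values missing, and the spots of each probe averaged. Levels are log2 of that deposited signal, less the array's 75th percentile. Of 55681 probes, 26056 were named through RefSeq accessions (GRCm38.p6 table) and 29625 stayed unnamed. The 32611 probes that all arrays of some group read well above background were kept, and the brightest probe stood for each gene, giving 24456 features. The 12 arrays were fitted as 5 group means with limma 3.58.1 in R 4.3.3 (lmFit, eBayes), with Benjamini-Hochberg adjustment over all features and a threshold of 0.05. The fit was tested on simulated data.

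The members, the marker, import and shuttle lists and the tests were chosen with earlier results of these data known. Values are given for carriers past the threshold (the 8 with the largest change in a comparison, or the 3 with the smallest p where fewer than 3 passed), for tissue-enriched carriers and for carriers at background in 1 tissue. The values of 1 carrier are not reported here, and it stays in the counts. The alternatives were other scalings, other filters on dim probes, the mean of the probes, the compared arrays alone, slide or replicate number as a block, the array with contradictory labels placed in either tissue, weak areas of an array left out, and each array left out. Replicate numbers did not pair arrays: deviations of arrays with the same number correlated between -0.23 and 0.11. Precision is limited by the number of arrays in a group.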

Additional observations from a re-analysis of the deposited data

How the results depend on the processing

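The counts below are carriers past the threshold. For AP20187 against vehicle in WAT the count was 1. It was 0 with quantile scaling, normexp with quantile scaling, the percentile over detected probes, the percentile over all spots (chosen after seeing the data), the deposited value table, the mean of the probes, the compared arrays alone, slide as a fixed block and the array with contradictory labels in BAT vehicle. It was 2 with no filter (4.35% of carriers, beside 14.8% of all features) and with that array in WAT vehicle (4.88%, beside 7.8%). It was 0 to 4 with 1 array left out, the 4 being 9.76%, beside 9.24%. For AP20187 against wild type the count was 2. It was 0 with quantile scaling, the compared arrays alone, the contradictory array in BAT vehicle and slide as a fixed block. It was 1 with normexp or the percentile over detected probes. No filter gave 9 (19.6% of carriers, beside 18.9% of all features) and the stricter filter 6 (19.4%, beside 19%). Slide as a random block gave 24 (58.5%, beside 55.1%), and the contradictory array in WAT vehicle 6 (14.6%, beside 13.4%). With 1 array left out it was 0 to 12, the 12 being 29.3%, beside 21.9%. For BAT against WAT with vehicle the count was 17 (41.5% of carriers, beside 23.4% of all features). It was 0 with the contradictory array in BAT vehicle, where 0% of all features passed. With 1 array left out it reached 21 (51.2%, beside 32.9%) and was lowest without WAT vehicle 2. Without WAT vehicle 1 or WAT vehicle 2 the share of carriers fell under that of all features, and without BAT vehicle 2 it was near it. With AP20187 it was 13 (31.7%, beside 29.9%) and 7 with the compared arrays alone (17.1%, beside 9.56%). It was 8 with the contradictory array in BAT vehicle (19.5%, beside 15.7%). Slide as a random block gave 21 (51.2%, beside 50.1%). With 1 array left out it reached 15 (36.6%, beside 27.7%). It was lowest without BAT AP20187 2, where the share of carriers fell under that of all features. The 8 tissue-enriched carriers became 13 with the percentile over detected probes, 4 with the compared arrays alone, 0 with the contradictory array in BAT vehicle, 13 with the averaged difference (chosen after seeing the data) and 3 to 11 with 1 array left out. The difference of the responses gave 0, and 0 to 1 with 1 array left out. AP20187 in BAT and vehicle against wild type gave 0 under every alternative run.

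The replicate block, whose numbers do not pair the arrays, gave 0 carriers for AP20187 against vehicle and 0 against wild type in WAT. It gave 12 for each tissue comparison (29.3% of carriers), beside 16% of all features with vehicle and 23.7% with AP20187. It gave 8 tissue-enriched carriers, beside 1326 BAT-enriched and 1135 WAT-enriched features. Slide as a fixed block could not be fitted for tissue. For named results past the threshold, 503 of 597 alternative values stayed past it, 94 did not and 0 reversed. The cause of these moves was not tested.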

Other observations

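The array whose title and tissue label say BAT and whose source name says WAT entered no group. Of the 41 tested carriers, 31 lay on it within the range of the WAT arrays only, 0 within the range of the BAT arrays only, and 10 within both. Its levels were -1.52 for Slc25a34, -4.55 for Slc25a48, 2.71 for Slc25a42, 2.06 for Slc25a33, 5.17 for Slc25a11, 2.69 for Slc25a25, 1.74 for Slc25a24 and 0.02 for Slc25a45. Ucp1 was at -4.57. Slc25a10 was at 2.59 and Slc25a35 at 1.98. No tissue was assigned to this array from these values.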
